A study of Mus musculus with 6 samples.

Results

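The genes described here are 43 antiviral interferon-stimulated genes of the mouse, chosen by name for their known place in the antiviral response and read from a table of 12942 genes. The list was made with earlier results of these data known. Each of the 43 was listed in the table, and each reached a value of 10 in at least 3 of the 6 libraries. Ifi44 and Oas2 reached it through the control libraries alone. RNA sequencing had been done on invariant natural killer T cells of subtype 1 (iNKT1 cells) from liver, sorted as positive for both the CD1d tetramer and a YFP reporter. Such T cells bind lipids shown by the CD1d molecule, and the subtype is known for making interferon gamma.

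The cKOHet group (Tbx21Cre Ets1F/F Tbx21F/+ Rosa26-YFP+) had 2 floxed alleles of Ets1 and 1 floxed allele of Tbx21, which encodes the transcription factor T-bet. The control group (Tbx21Cre Rosa26-YFP+) had neither floxed gene. Both groups carried the same Cre and the Cre-activated YFP, so cells without Cre are not among the 6 libraries, and Cre of this name acts only once a cell has used the Tbx21 gene. Ets1 and Tbx21 were altered together, so their effects cannot be told apart here. The 3 libraries of a group are numbered 1, 2 and 4, and in both groups the table's column name for replicate 1 joins a pair of codes, which the labels do not explain, and whether it joins more than 1 sample is not given. The labels call the replicates independent without naming animals, ages or strain, so p-values measure the spread between libraries. The series' design text differs from these labels, since it names thymus beside liver and a genotype with Ets1 but not Tbx21 floxed, and the groups here follow the labels. The titles of control replicate 4 and cKOHet replicate 1 say iNKT, and those of the other libraries say iNKT1.

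Cells that sense viral nucleic acid release type I interferons, which bind the receptor chains Ifnar1 and Ifnar2 and, through Janus kinases, activate a complex that holds Stat2 and Irf9. That complex binds a DNA element called the interferon-stimulated response element (ISRE) and switches on the genes described here. Their products block viral translation, degrade or edit RNA, deplete nucleotides, hold budding virus at the membrane or sense viral RNA again. T cells also use many of these genes at a low level without infection.

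Values are the authors' normalised counts, and their depth is unknown. Each column summed to between 5049835 and 5219483 in cKOHet libraries and between 4996523 and 5205155 in control libraries. Ets1 itself stood at 462, 596 and 441 in cKOHet replicates 1, 2 and 4, against 7391, 6255 and 7787 in control replicates 1, 2 and 4, and the groups were far apart. Tbx21 stood at 2174, 2316 and 2127 in cKOHet libraries, against 2434, 2504 and 2765 in control libraries, a difference that did not pass the test (adjusted p = 0.196, limma). Replicate 4 stood apart in both groups: Xist, the RNA of the silenced X chromosome of females, was at 0.08 in cKOHet replicate 4 and at 1.17 in control replicate 4, against 4337 to 5657 in the other 4 libraries. The Y-linked gene Ddx3y was at 604 in cKOHet replicate 4 and at 519 in control replicate 4, and near 0 in the others. With those libraries left out, an alternative chosen after seeing the data, 25 of the 43 genes were called lower and 3 higher.

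As a whole the antiviral genes were lower in cKOHet cells. By limma, 27 of the 43 were called lower and 3 higher (Mx1, Samhd1 and Ifi27) at an adjusted p under 0.05, and 13 were not called. The 27 include Ifi44 and Oas2, which reached a value of 10 in control libraries alone. Over the 11226 genes tested, 9.97% were called lower and 11.5% higher. Without control replicate 2, 16 of the 43 were called lower. The median log2 fold change (cKOHet minus control) was -0.64 over the 43 genes and 0.01 over all genes tested, and 39 of the 43 had a negative value. At 25 of the 43 every cKOHet library lay below every control library, which held for 16.7% of all genes tested, and at 2 of the 43 every cKOHet library lay above, which held for 19.1%. In bulk libraries such as these, fewer cells using a gene and less RNA per cell cannot be told apart.

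**Figure D1:**
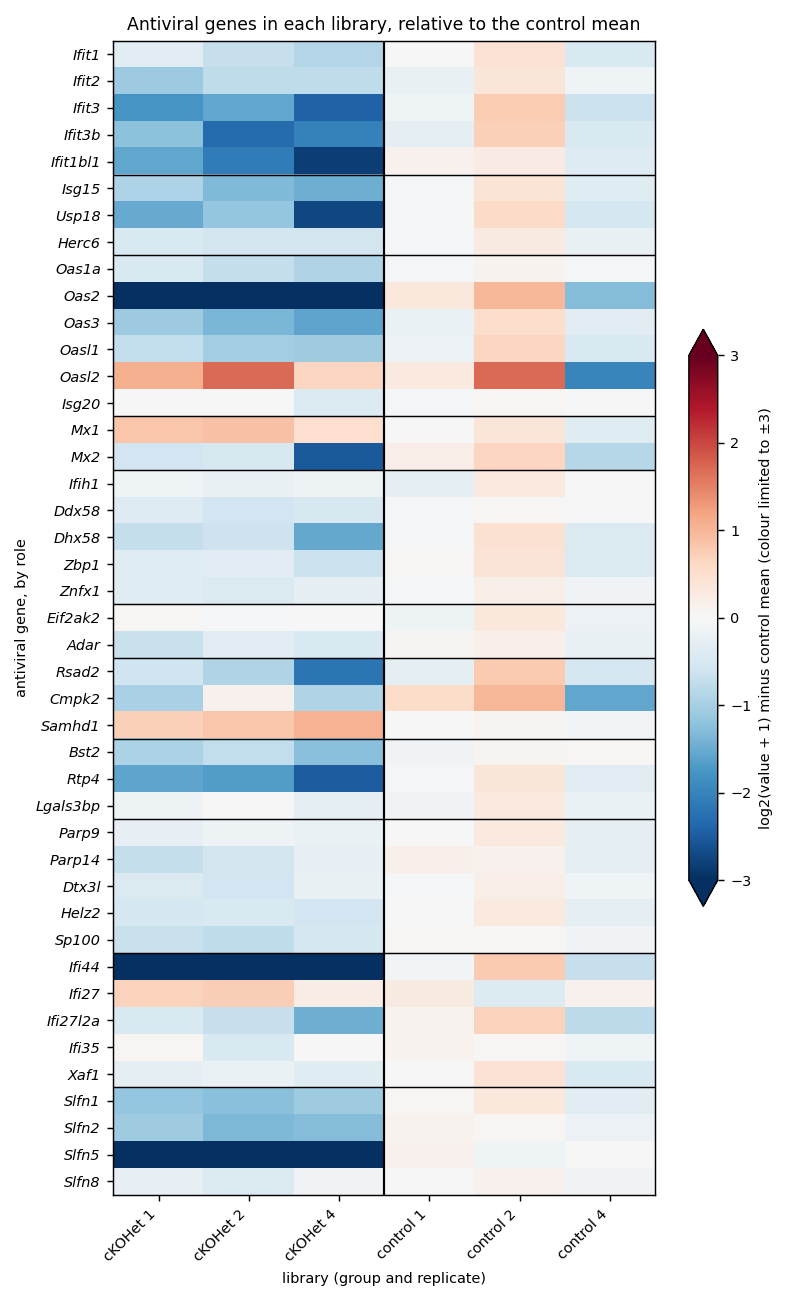
The heat map shows, for each of the 43 antiviral genes (rows, by role) in each of the 6 libraries (columns, cKOHet left of control), the log2(value + 1) minus that gene's control mean, with the colour limited to 3 either way. Most rows are lower in the 3 cKOHet columns, and among controls the values of replicate 2 are the highest at 37 of 43 genes. Mx1, Samhd1 and Ifi27 run the other way, as does Oasl2, which was not called.

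The summed value of the 43 genes shows how far the libraries differed as a whole. It was 24367, 24090 and 24073 in cKOHet replicates 1, 2 and 4, against 33582, 39099 and 28457 in control replicates 1, 2 and 4. The cKOHet libraries were nearly level with each other in this sum, and each was below the lowest control. Genes with high values weigh most in such a sum. The median log2(value + 1) of the 43 genes was 8.55, 8.19 and 8.21 in cKOHet replicates 1, 2 and 4, against 8.87, 9.12 and 8.62 in control replicates 1, 2 and 4. The controls were spread more widely. Control replicate 2 had the highest control value at 37 of 43 genes, while it had the highest at 32.9% of all genes tested. Control replicate 4 had the lowest control value at 36 of 43, against 33.5% of all genes tested. In cKOHet cells replicate 4 was lowest at 25 of 43 genes, against 35.5% of all genes tested. Replicate 4 was the lowest library of both groups at 21 of 43 (48.8%) of the antiviral genes and at 11.5% of all genes tested. Those libraries are also the ones without Xist, and replicate number and Xist cannot be told apart. With a term for low Xist in the limma fit, 1 of the 43 genes and 4 of the 11226 tested passed for that term (Ifi27l2a, lower without Xist, log2 difference -1.04, adjusted p = 0.0431).

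The sequences before the start sites of 4 genes that were called lower and of 1 gene that was not are shown because each holds letters of the element to which the interferon-activated complex binds. They are RefSeq sequence of GRCm38.p6, 5′ to 3′ on the gene's own strand, beginning 250 bases before the RefSeq start site and cut short where an annotated exon of the gene begins. That of Slfn5 lies within the annotated span of the gene, whose first base in GENCODE is further upstream, and holds none of its annotated exons. Capitals mark matches to the ISRE letters on either strand, which were GAAA, any 2 bases and GAAA again.
Slfn5, chr11:82951852-82951984, plus strand, called lower: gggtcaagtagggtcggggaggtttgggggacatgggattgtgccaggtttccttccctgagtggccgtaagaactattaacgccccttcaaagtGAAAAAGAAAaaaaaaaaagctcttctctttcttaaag
Slfn8, chr11:83020811-83020972, minus strand, not called: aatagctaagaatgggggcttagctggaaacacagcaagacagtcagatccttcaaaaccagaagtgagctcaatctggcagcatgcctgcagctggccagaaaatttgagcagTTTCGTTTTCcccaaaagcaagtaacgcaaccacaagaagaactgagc
Ifit3, chr19:34583279-34583528, plus strand, called lower: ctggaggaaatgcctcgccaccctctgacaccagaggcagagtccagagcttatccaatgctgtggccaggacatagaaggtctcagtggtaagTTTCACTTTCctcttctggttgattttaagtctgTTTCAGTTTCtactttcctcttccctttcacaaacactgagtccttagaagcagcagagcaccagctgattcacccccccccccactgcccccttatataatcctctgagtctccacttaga
Ifit3b, chr19:34607707-34607956, plus strand, called lower: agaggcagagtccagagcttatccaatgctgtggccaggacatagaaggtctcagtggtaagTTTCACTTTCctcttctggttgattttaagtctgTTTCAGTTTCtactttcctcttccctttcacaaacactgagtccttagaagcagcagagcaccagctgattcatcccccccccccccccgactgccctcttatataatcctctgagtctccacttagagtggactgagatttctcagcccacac
Isg15, chr4:156200819-156201068, minus strand, called lower: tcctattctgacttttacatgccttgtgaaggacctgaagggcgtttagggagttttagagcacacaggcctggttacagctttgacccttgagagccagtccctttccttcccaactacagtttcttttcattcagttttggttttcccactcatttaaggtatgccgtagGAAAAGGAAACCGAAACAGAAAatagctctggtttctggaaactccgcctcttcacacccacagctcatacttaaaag

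The Isg15 sequence holds 3 overlapping matches that begin 78, 72 and 66 bases before the start site and join into 1 run of capitals. Ifit3 and Ifit3b share both of their matches and most of the sequence around them, and the matches begin 156 and 122 bases before the start of Ifit3 and 188 and 154 bases before that of Ifit3b. Slfn5 holds 1 match, 155 bases before its start. Slfn8, which lies near Slfn5 on chromosome 11, holds 1 match, which lies in the windows of both its listed start sites, so the letters are present at a gene that was not called as well.

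A RefSeq promoter window (250 bases before to 50 after the start) was listed for 32 of the 43 genes. ISRE letters were found, in any window listed for a gene, in 14 of these 32 (43.8%), in 3.99% of the 27025 genes of the promoter table and in 3.88% of the 8269 tested genes with a window. Among antiviral genes with a window, 11 of 21 called lower held them (52.4%), 3 of 10 not called did (Ifih1, Eif2ak2 and Slfn8), and Samhd1, the only one called higher that had a window, did not. Among all tested genes with a window, the antiviral genes included, they were found in 8.37% of those called lower, 3.67% of those called higher and 3.33% of those not called. Bst2 and Oas1a held 2 overlapping matches each, and Oas3 and Rsad2 held 1.

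The gamma-activated sequence, an element of the response to interferon gamma, was searched as TTCNNNGAA, which reads the same on both strands. It was found in 8 of the 32 genes with a window (25.0%), against 9.55% of the genes of the promoter table and 8.405% of the tested genes. In Bst2 it overlapped an ISRE match, and in Samhd1 it began 235 bases before the start. The Ets consensus ACCGGAAGT was not found on either strand in the windows of these 32 genes and was found in 1.21% of the genes of the promoter table and 2.98% of the tested genes. At shares this low, its absence from 32 genes says little. A match to letters is a description of the sequence and not evidence of a bound factor.

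**Figure D2:**
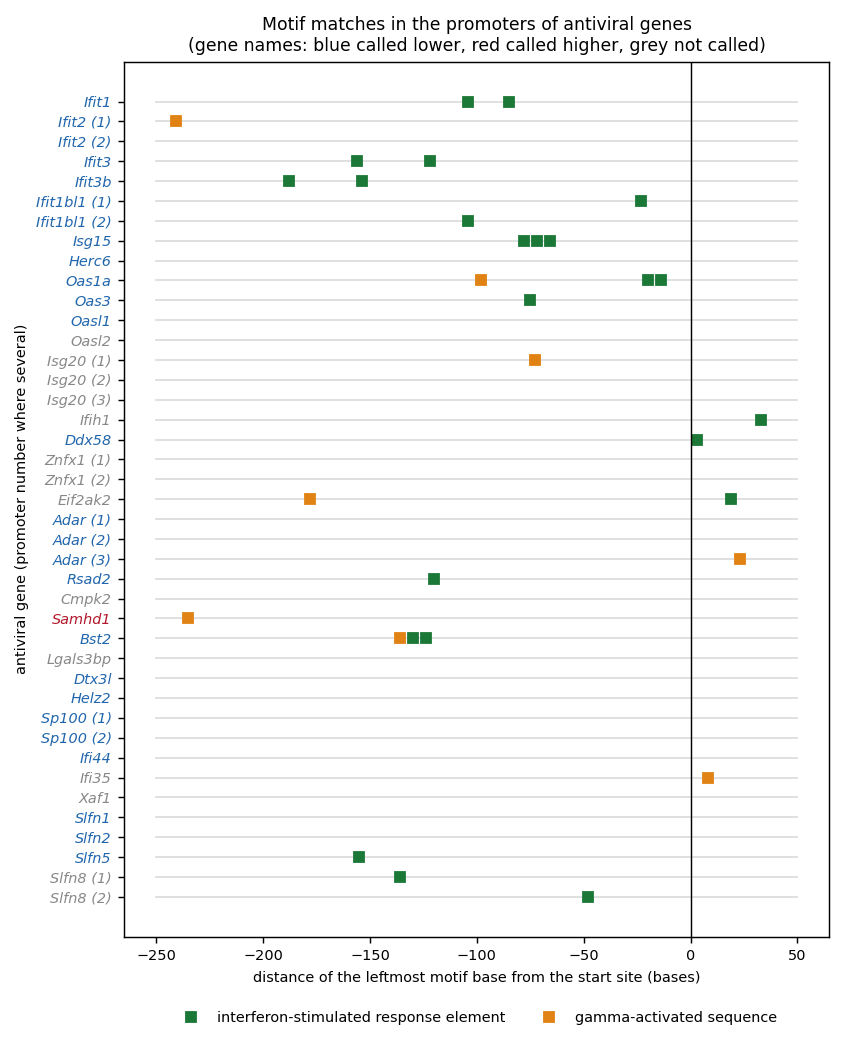
The map shows, for each antiviral gene with a RefSeq window, the distance in bases from the start site (horizontal axis) of each ISRE and gamma-activated sequence match in its RefSeq window, by motif. ISRE matches lie on both sides of the start, as far out as 188 bases before it at Ifit3b.

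Proteins of the IFIT family bind viral RNA through its unmodified cap or end and block its translation. All 5 IFIT genes were lower in cKOHet cells, with a median log2 fold change of -1.85. Ifit1bl1, a mouse member of the family, was at 487, 337 and 202 in cKOHet replicates 1, 2 and 4, against 1576, 1699 and 1107 in control replicates 1, 2 and 4. The cKOHet mean was 342 ± 143, against 1461 ± 313 in controls (SD, n = 3 each), a 4.27-fold difference (log2 fold change -2.16, SE 0.24, adjusted p = 1.09e-05, limma). No cKOHet library reached the lowest control.

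Ifit3, which pairs with Ifit1 in human cells, was at 102, 118 and 63.6 in cKOHet libraries, against 317, 589 and 223 in control libraries (log2 fold change -1.91, SE 0.30, adjusted p = 0.000277, limma). Its near copy Ifit3b was at 51.4, 23.9 and 29.2 in cKOHet libraries, against 101, 201 and 88.8 in control libraries (log2 fold change -1.85, SE 0.36, adjusted p = 0.00155, limma). Both genes were lower in every cKOHet library. Ifit3 shares 51.2% of its stretches of 50 bases with Ifit3b, so reads could be split or lost between them and their separate levels are uncertain. Ifit2 was at 202, 253 and 255 in cKOHet libraries, against 370.2, 554 and 393 in control libraries (log2 fold change -0.87, SE 0.17, adjusted p = 0.0019, limma). Ifit1, which recognises caps that lack ribose methylation, was at 373, 291 and 257 in cKOHet libraries, against 480.1, 642 and 345 in control libraries. It was the mildest change of the family and the one whose groups overlapped (log2 fold change -0.64, SE 0.20, adjusted p = 0.0346, limma). Its call ended without cKOHet replicate 2 or 4 or control replicate 1 or 2, with an adjusted p of up to 0.178.

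Isg15 is a ubiquitin-like protein that is joined to other proteins after interferon, Herc6 is the ligase that does this in mouse cells, and Usp18 removes it and also blocks the interferon receptor. All 3 genes were lower in cKOHet cells, with no overlap of the groups. Isg15 was at 155, 119 and 106 in cKOHet libraries, against 287, 393 and 229 in control libraries, and its means were 127 ± 25.4 in cKOHet cells and 303 ± 83.1 in control cells (SD, n = 3 each; log2 fold change -1.24, SE 0.22, adjusted p = 0.000647, limma). Usp18 was at 47.3, 60.2 and 19.9 in cKOHet libraries, against 133, 203 and 94.1 in control libraries, a 3.38-fold difference of the means (log2 fold change -1.80, SE 0.38, adjusted p = 0.00307, limma). The conjugating ligase moved least of the 3. Herc6 was at 379, 358 and 355 in cKOHet libraries, against 511, 628 and 448 in control libraries (log2 fold change -0.53, SE 0.15, adjusted p = 0.0167, limma), and it was not called without cKOHet replicate 2 (adjusted p = 0.0503) or control replicate 2 (adjusted p = 0.099).

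The 2-5A synthetases make short oligoadenylates on double-stranded RNA, which lead to the cutting of RNA. Of these genes and the RNA exonuclease Isg20, 4 of 6 were called lower, none higher, and 2 were not called. Oas2 was at 8.07, 6.33 and 0.07 in cKOHet libraries, against 139, 221 and 44.5 in control libraries. It was close to 0 in all 3 cKOHet libraries, so the size of its change (log2 fold change -4.76, SE 0.73, adjusted p = 0.000213, limma) depends on the constant of 1 added before taking logs, and it was -3.69 with a constant of 5. Leaving out cKOHet replicate 4 or control replicate 4 moved that log2 fold change to -3.78 or -5.41. Oas2 reached the filter through the control libraries alone. Oas3 had values of 482, 397 and 342 in cKOHet libraries, against 897, 1481 and 834 in control libraries, and the means were 2.63-fold apart (log2 fold change -1.36, SE 0.19, adjusted p = 9.86e-05, limma).

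Oas1a, whose transcripts share 57.6% of their stretches of 50 bases with Oas1g and whose level is therefore uncertain, was at 143, 120.4 and 105 in cKOHet libraries, against 191, 213 and 190.2 in control libraries (log2 fold change -0.69, SE 0.19, adjusted p = 0.016, limma). It was not called without cKOHet replicate 4 (adjusted p = 0.0517) or control replicate 2 (adjusted p = 0.0645). Oasl1, which in mouse cells limits translation of Irf7, was at 45.3, 37.0 and 36.5 in cKOHet libraries, against 67.4, 120.0 and 56.0 in control libraries. It only just passed (log2 fold change -0.95, SE 0.32, adjusted p = 0.0496, limma), and leaving out any library other than control replicate 4 ended the call, with an adjusted p of up to 0.246. Oasl2, the neighbour of Oasl1 on chromosome 5, had the most uneven controls of all 43 genes: it was at 87.6, 136 and 64.6 in cKOHet libraries, against 50.7, 135 and 9.64 in control libraries. Its groups overlapped and it was not called (log2 fold change 1.14, 95% interval -0.22 to 2.49, adjusted p = 0.242, limma). Without control replicate 2 it was called higher (log2 fold change 1.98, adjusted p = 0.0189), and leaving out control replicate 4 gave a log2 fold change of 0.14. Isg20 was at 182, 185 and 138 in cKOHet libraries, against 176, 192 and 184 in control libraries, and was not called (95% interval of the log2 fold change -0.53 to 0.25).

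The Mx proteins are dynamin-like GTPases that trap viral nucleoproteins, Mx1 in the nucleus and Mx2 in the cytoplasm of mouse cells. The 2 genes, neighbours on chromosome 16, had log2 fold changes of opposite sign. Mx1 was at 465, 481 and 374 in cKOHet libraries, against 263, 337 and 204 in control libraries, 1.64-fold higher in the mean and with no overlap (log2 fold change 0.73, SE 0.18, adjusted p = 0.00853, limma). Mx2 was low throughout, at 23.2, 25.0 and 5.28 in cKOHet libraries, against 40.7, 55.7 and 19.1 in control libraries, and was not called (log2 fold change -1.20, SE 0.56, adjusted p = 0.156). Leaving out cKOHet replicate 4 moved its log2 fold change to -0.53. Mx1 is defective in many inbred mouse strains, and the strain is not given in the sources used here.

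**Figure D3:**
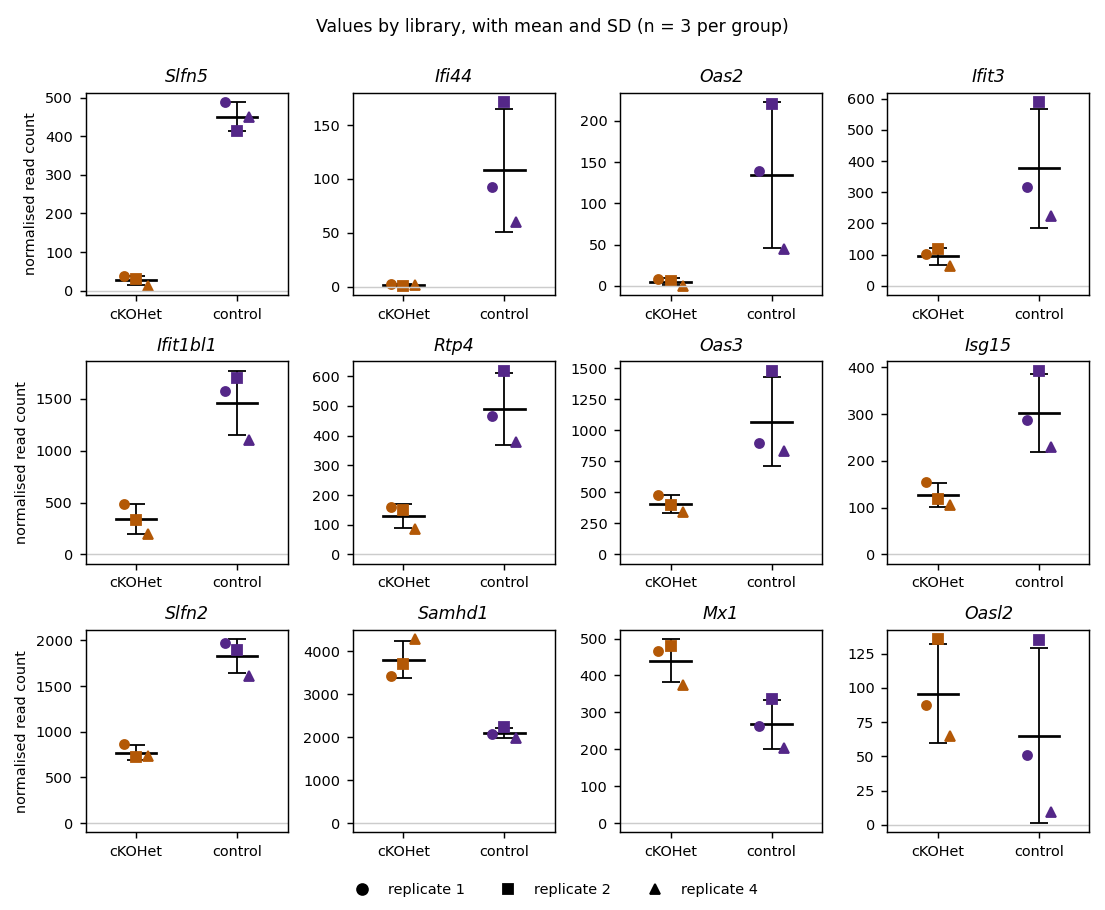
Each panel plots the authors' normalised count of 1 gene in the 6 libraries on a linear axis, cKOHet left of control, with points for libraries and bars for the mean and SD of 3. Slfn5, Ifi44 and Oas2 differ most in the ratio of their means, Mx1 and Samhd1 are higher in cKOHet libraries, and Oasl2 is spread from 9.64 to 135 among controls.

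Of the 5 genes for sensors of nucleic acid, 2 were called lower and 3 were not called. Ddx58 encodes RIG-I, the sensor of RNA with a triphosphate end, and was at 1017, 893 and 963 in cKOHet libraries, against 1304, 1379.7 and 1331 in control libraries (log2 fold change -0.48, SE 0.11, adjusted p = 0.00541, limma). The spread within both groups was small, and they did not overlap. Dhx58, which encodes the related regulator LGP2, was at 174, 184 and 97.9 in cKOHet libraries, against 279, 391 and 211 in control libraries (log2 fold change -0.95, SE 0.26, adjusted p = 0.0142, limma). Its call ended without cKOHet replicate 4 (adjusted p = 0.0686) or control replicate 2 (adjusted p = 0.0817). Ifih1 encodes MDA5, the sensor of long double-stranded RNA, and was at 300.1, 279.9 and 296 in cKOHet libraries, against 271, 403 and 323 in control libraries. Its groups overlapped, and the 95% interval of its log2 fold change was -0.52 to 0.18. Zbp1, a sensor of Z-form nucleic acid that can start cell death, was at 977, 996 and 809 in cKOHet libraries, against 1293, 1657 and 941 in control libraries. It missed the threshold (log2 fold change -0.45, adjusted p = 0.0758), and passed it without control replicate 4 (log2 fold change -0.66, adjusted p = 0.00713). Znfx1, an RNA helicase, was at 515, 492 and 553 in cKOHet libraries, against 631, 747 and 615 in control libraries, and did not pass although the groups did not overlap (adjusted p = 0.0665).

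Eif2ak2 encodes PKR, a kinase that stops translation when it meets double-stranded RNA, and Adar edits adenosine in such RNA so that it escapes the sensors. Eif2ak2 was at 437, 412 and 426 in cKOHet libraries, against 383, 536 and 378 in control libraries, and was not called (log2 fold change -0.01, 95% interval -0.33 to 0.32). Adar was at 785, 991 and 904 in cKOHet libraries, against 1316, 1373 and 1059 in control libraries (log2 fold change -0.48, SE 0.13, adjusted p = 0.0173, limma). The call of Adar ended without cKOHet replicate 1 or control replicate 1 or 2, with an adjusted p of up to 0.0845. Adar thus fell without overlap of the groups, while the cKOHet values of Eif2ak2 lay inside the range of its controls. Adar shares 1365 exonic bases with Chrnb2 on the opposite strand, and since the strand setting of the counting is not given, reads there cannot be assigned between them.

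Samhd1 hydrolyses deoxynucleotides, Rsad2 (viperin) makes a chain-terminating nucleotide, and Cmpk2 is a nucleotide kinase encoded beside Rsad2 on chromosome 12. Samhd1 was at 3432, 3702 and 4281 in cKOHet libraries, against 2069, 2229 and 1992 in control libraries. It was 1.82-fold higher in the mean, 3805 ± 434 in cKOHet cells and 2096 ± 121 in control cells (SD, n = 3 each), with no overlap (log2 fold change 0.86, SE 0.12, adjusted p = 8.89e-05, limma). Samhd1 was the only gene of the 43 called higher under each of the 24 alternatives tried. Rsad2 was at 65.5, 52.7 and 20.9 in cKOHet libraries, against 80.3, 173 and 69.8 in control libraries (log2 fold change -1.23, SE 0.42, adjusted p = 0.0485, limma). Its call ended when cKOHet replicate 2 or 4 or control replicate 1 or 2 was left out, with an adjusted p of up to 0.228. Cmpk2 was at 38.3, 84.4 and 40.7 in cKOHet libraries, against 113, 154 and 25.5 in control libraries. It was not called (adjusted p = 0.489), but without control replicate 4, the low control, it was called lower (log2 fold change -1.35, adjusted p = 0.0188).

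Bst2 (tetherin) holds budding virus at the cell surface, Rtp4 is a chaperone of membrane receptors, and Lgals3bp is a secreted glycoprotein that binds galectins. Rtp4 was at 159, 148 and 84.4 in cKOHet libraries, against 466, 619 and 379 in control libraries, a 3.74-fold difference of the means (log2 fold change -1.92, SE 0.24, adjusted p = 2.48e-05, limma). Bst2 was at 215, 249 and 174 in cKOHet libraries, against 388, 438 and 423 in control libraries (log2 fold change -0.98, SE 0.16, adjusted p = 0.000395, limma). Both were lower in every cKOHet library, under every alternative tried. Lgals3bp was at 1722, 1904 and 1568 in cKOHet libraries, against 1788, 2362 and 1675 in control libraries, and was not called (95% interval of the log2 fold change -0.45 to 0.14).

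Among nuclear proteins, enzymes of ADP-ribosylation and coactivators, 4 of 5 genes were called lower, by 1.33-fold (Dtx3l) to 1.58-fold (Sp100) in the mean. Sp100, a core protein of nuclear bodies that restrict DNA viruses, was at 2647, 2476 and 2929.7 in cKOHet libraries, against 4429, 4363 and 3917 in control libraries (log2 fold change -0.66, SE 0.12, adjusted p = 0.000759, limma). It was lower by a modest factor, with a small spread in both groups. Helz2, a helicase and coactivator, was at 1109, 1154 and 1061 in cKOHet libraries, against 1579.5, 1947 and 1311 in control libraries (log2 fold change -0.52, SE 0.14, adjusted p = 0.0127, limma), and it was not called without control replicate 2 (adjusted p = 0.0779). The enzymes Parp14, Dtx3l and Parp9 lie side by side on chromosome 16, and Dtx3l and Parp9 form a complex. Parp14 was at 1073, 1204 and 1492 in cKOHet libraries, against 1959.9, 1944 and 1457 in control libraries, with an overlap at replicate 4 (adjusted p = 0.0221). Dtx3l was at 1086, 992 and 1259 in cKOHet libraries, against 1438, 1662 and 1336 in control libraries (adjusted p = 0.0315). Parp9 was at 635, 674 and 653 in cKOHet libraries, against 758, 913 and 611 in control libraries, and was not called (adjusted p = 0.376). Parp14 and Dtx3l lost their calls without cKOHet replicate 1 or 2 or control replicate 1 or 2, with an adjusted p of up to 0.146. Dtx3l and Parp9 share 458 exonic bases on opposite strands, so their reads there cannot be separated.

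The gene with the largest change by log2 fold was Ifi44, an interferon-induced protein that curbs virus replication and feeds back on interferon signalling. It was at 2.03, 0.79 and 1.12 in cKOHet libraries, against 92.5, 171 and 60.2 in control libraries. Its cKOHet values are those of about 1 normalised count, so the gene was at the limit of detection there, and the size of its log2 fold change of -5.46 (SE 0.51, adjusted p = 1.68e-06, limma) depends on the constant of 1. With a constant of 5 it was -4.05, still called. Ifi44 reached the filter through the control libraries alone. Ifi27 and Ifi27l2a, which encode small hydrophobic proteins, lie next to each other on chromosome 12 and were called in opposite directions. Ifi27 was at 817, 854 and 595 in cKOHet libraries, against 618, 381 and 559 in control libraries (log2 fold change 0.55, SE 0.18, adjusted p = 0.0415, limma). Ifi27l2a was at 792, 676 and 393 in cKOHet libraries, against 1172, 1749.7 and 628 in control libraries (log2 fold change -0.87, SE 0.30, adjusted p = 0.0483, limma). Both pairs of groups overlapped. Ifi27 lost its call without cKOHet replicate 1 or 2 or control replicate 2 or 4 (adjusted p up to 0.198), and Ifi27l2a without cKOHet replicate 2 or 4 or control replicate 1 or 2 (adjusted p up to 0.249). Ifi35 and Xaf1, a partner of the apoptosis inhibitor XIAP, were not called, with log2 fold changes of -0.13 and -0.28.

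Schlafen genes are induced by interferon and regulate growth and quiescence of T cells, and Slfn5, Slfn8, Slfn2 and Slfn1 lie within chr11:82951349-83122670 (GRCm38). Of these 4, Slfn5, Slfn2 and Slfn1 were called lower and Slfn8 was not called. Slfn5 (ENSMUSG00000054404) was at 37.3, 29.5 and 12.6 in cKOHet libraries, against 489, 412 and 450.1 in control libraries. The means were 26.4 ± 12.6 in cKOHet cells and 450.3 ± 38.2 in control cells (SD, n = 3 each), a 17.0-fold difference (log2 fold change -4.16, SE 0.32, adjusted p = 2.11e-07, limma). It had the smallest adjusted p of the 43 genes. Unlike most of them, Slfn5 varied little among controls, whose highest value was 1.19 times the lowest, and control replicate 2 was its lowest control. An antisense transcript, Slfn5os, shares 559 exonic bases with it.

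Slfn2, loss of which disturbs T cell quiescence in mice, was at 862, 719 and 737 in cKOHet libraries, against 1967, 1895 and 1614 in control libraries, a 2.36-fold difference of the means (log2 fold change -1.24, SE 0.12, adjusted p = 3.22e-06, limma). Slfn1 was at 442, 411 and 466 in cKOHet libraries, against 1006, 1222 and 769.5 in control libraries (log2 fold change -1.16, SE 0.15, adjusted p = 5.78e-05, limma). For both, the lowest control was above the highest cKOHet library. Slfn8 was at 1219.7, 1069 and 1351 in cKOHet libraries, against 1444, 1581 and 1341 in control libraries, and its groups overlapped (log2 fold change -0.27, adjusted p = 0.15).

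**Figure D4:**
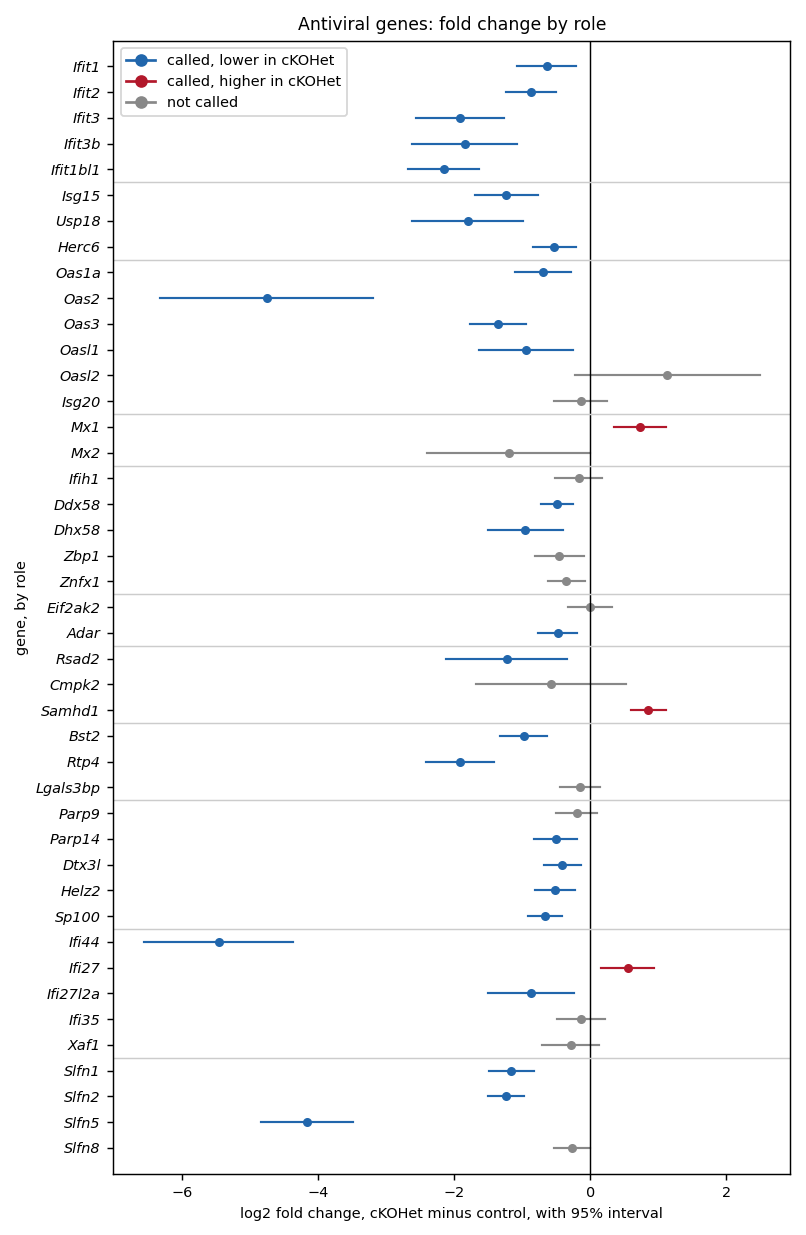
Points show the log2 fold change of each of the 43 antiviral genes (cKOHet minus control), grouped by role, with the 95% interval of the limma fit. The IFIT, ISG15 and Schlafen genes lie furthest below 0 as groups, and Ifi44, Oas2 and Slfn5 are the lowest single genes. Samhd1, Mx1 and Ifi27 lie above 0, as does Oasl2, whose interval spans 0.

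Within the genome the 43 genes lie on 13 chromosomes, and 23 of them lie in 8 loci with gaps of at most 200000 bases between neighbours. The Ifit locus (chr19:34550694-34650009, GRCm38) holds 5 of the genes, and all 5 were lower. The Oas locus (chr5:120730333-120907521) holds Oas2, Oas3 and Oas1a, all 3 of them lower. Members of the other loci differed in their calls: Rsad2 was lower and its neighbour Cmpk2 was not called, and Mx1 was higher and Mx2 was not called.

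Compared per kilobase of exonic sequence, so that genes of different length can be set side by side, the order of the genes differed between the groups. Ifi27l2a had the highest level in both, at 1340 per kilobase in cKOHet cells and 2556 per kilobase in control cells. Slfn2 was in place 4 in cKOHet cells, at 464, and in place 2 in control cells, at 1097. Samhd1 was in place 5 in cKOHet cells, at 416, and in place 14 in control cells, at 229. Ifit1bl1 was in place 14 in cKOHet cells, at 151, and in place 4 in control cells, at 646. Slfn5 was at 4.18 in cKOHet cells and 71.2 in control cells, which put it in place 41 of 43 in cKOHet cells and in place 30 in control cells.

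The antiviral genes also varied more among the controls than genes did in general. The ratio of the highest to the lowest control had a median of 1.54 over the 43 genes and 1.32 over all genes tested, and it was above 2 at 11 of the 43 and at 14.7% of all genes tested. Across the 43 genes, its Spearman rho with the log2 fold change was -0.37, so that genes with more uneven controls had, on the whole, more negative fold changes. This is a description across genes that share the same 6 libraries. Oasl2 (14.0), Cmpk2 (6.03) and Oas2 (4.97) had the highest such ratios.

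Of 44 other genes of the interferon pathway, 33 were in the table and tested, with a median log2 fold change of -0.14. Of these 33, 12 were lower (36.4%), 5 higher (15.2%) and 16 not called in cKOHet cells. Over all genes tested, 9.97% were called lower and 11.5% higher, so the share called higher was near that of all genes. Ifng, which encodes interferon gamma, was the only ligand in the table, and it was at 1686, 2157 and 1566 in cKOHet libraries, against 473, 401 and 351 in control libraries (log2 fold change 2.14, SE 0.15, adjusted p = 7.28e-08, limma). Its receptor chain Ifngr1 was at 9938, 7955 and 9453 in cKOHet libraries, against 2406, 2850.2 and 2373 in control libraries (log2 fold change 1.84, SE 0.13, adjusted p = 9.91e-08, limma). Interferon gamma and this receptor chain were thus higher where most antiviral genes were lower. Of the type I receptor chains, Ifnar2 was at 367, 381 and 309 in cKOHet libraries, against 468, 486 and 527 in control libraries (adjusted p = 0.0179), and the call ended without cKOHet replicate 4 (adjusted p = 0.0568) or control replicate 4 (adjusted p = 0.0728). Ifnar1 was at 578, 586 and 574 in cKOHet libraries, against 635, 739 and 557 in control libraries, and was not called (adjusted p = 0.505).

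Of the complex that binds the ISRE, Irf9 was called lower and Stat2 was not called. Irf9 was at 639, 573 and 537 in cKOHet libraries, against 979.6, 883 and 677 in control libraries (log2 fold change -0.52, adjusted p = 0.0171). The change of Irf9 was small, and it lost its call without cKOHet replicate 2 or 4 or control replicate 1 or 2 (adjusted p up to 0.101). Irf7, which amplifies type I interferon and is itself induced by it, was at 440.1, 434 and 319 in cKOHet libraries, against 773, 1099 and 483 in control libraries (log2 fold change -0.92, SE 0.23, adjusted p = 0.00907, limma), and without cKOHet replicate 4 its adjusted p was 0.0588. Tmem173, which encodes the DNA-sensing adaptor STING, was at 563, 500.4 and 544 in cKOHet libraries, against 844, 855 and 890.0 in control libraries (log2 fold change -0.69, adjusted p = 0.000525). Socs3, an inhibitor of Janus kinases, was at 49.4, 50.9 and 43.8 in cKOHet libraries, against 104, 178 and 124 in control libraries (log2 fold change -1.44, adjusted p = 0.000907). The RNA sensor Tlr7 was near the limit of detection in cKOHet libraries, at 7.06, 0.81 and 0.05, against 21.3, 42.9 and 16.9 in control libraries. It reached the filter through the control libraries alone. Other genes of the same lists were called higher. Ptpn6, which encodes the phosphatase SHP-1, a brake of Janus kinases, was at 4090.2, 4603 and 4726 in cKOHet libraries, against 2006, 1577 and 2242 in control libraries (log2 fold change 1.22, adjusted p = 1.02e-05). Ticam1, the adaptor TRIF of Toll-like receptors, was at 264, 289 and 290.3 in cKOHet libraries, against 112, 117 and 168 in control libraries (log2 fold change 1.11, adjusted p = 0.000559). Every cKOHet library lay above every control library at both genes. The Janus kinase Tyk2 was at 983, 1272 and 1146 in cKOHet libraries, against 781, 777 and 868 in control libraries (log2 fold change 0.48, adjusted p = 0.012), and lost its call without cKOHet replicate 2 (adjusted p = 0.0668) or control replicate 1 (adjusted p = 0.0512), and in 6 of the 24 alternatives in all.

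**Figure D5:**
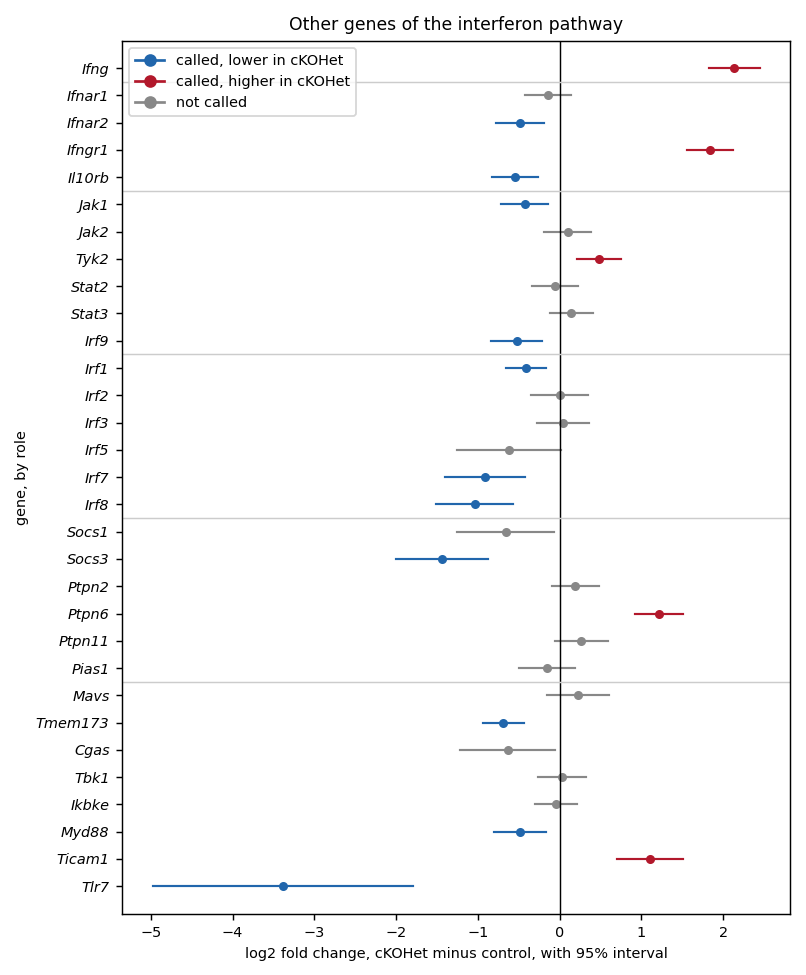
Points show the log2 fold change (cKOHet minus control) with its 95% interval for other genes of the interferon pathway that were tested, grouped by role. Ifng and Ifngr1 stand furthest above 0, and Tlr7, which reached the filter through controls alone, Socs3 and Irf8 furthest below among the genes called.

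Markers of the labelled cells were present in both groups. All 9 of the iNKT and T cell markers were in the table, with summed values of 42852.5 to 48031 in cKOHet libraries and 47512.5 to 52598.5 in control libraries. Of these 9, Il2rb was called lower, with a mean of 12376 ± 1882 in cKOHet cells and 20260.4 ± 338 in control cells (SD, n = 3 each), and Zbtb16 was called higher, with a mean of 954 ± 261 in cKOHet cells and 648 ± 21.7 in control cells. Markers of some other liver cells moved with the groups. For macrophages and Kupffer cells, 11 of 13 markers were listed, 6 were tested and Clec4f, Cd5l and Csf1r were called higher, with sums of 170.1 to 238 in cKOHet libraries and 38.8 to 103 in control libraries. Cd5l reached the filter through cKOHet libraries alone, and Timd4 was not among the genes listed. For conventional dendritic cells 4 of 7 markers were listed, H2-Aa and Xcr1 were higher, and the sums were 247 to 262 in cKOHet libraries and 105 to 156 in control libraries. For NK cells 4 of 4 were listed, with sums of 74.4 to 109 in cKOHet libraries and 24.5 to 34.9 in control libraries. Eomes and Klra8 were called higher (Klra8 reached the filter through cKOHet libraries alone), and Klra4 was not called. Ncr1, too low to be tested, went the other way, at 7.05, 5.52 and 6.26 in cKOHet libraries, against 9.26, 9.47 and 8.45 in control libraries. Ccr9, on the list for plasmacytoid dendritic cells and a chemokine receptor that T cells also use, was called higher, with a mean of 4017 ± 716 in cKOHet cells and 984 ± 66.6 in control cells (SD, n = 3 each, as in the means that follow), and it made up most of a list sum of 3262 to 4657 in cKOHet libraries and 949 to 1067 in control libraries. Cox6a2, of the same list, was at 16.1, 34.8 and 7.31 in cKOHet libraries, against 0, 0.06 and 1.13 in control libraries. It was too low to be tested. Tcf4 was at 21.1, 12.9 and 33.2 in cKOHet libraries, against 0.80, 5.35 and 14.8 in control libraries, and was not called. Of the B cell markers 1 of 6 was listed, Ighm, which was called lower, with a mean of 943 ± 155 in cKOHet cells and 1954 ± 94.9 in control cells. Of the liver endothelium markers, 3 of 6 were listed, with sums of 67.5 to 93.4 in cKOHet libraries and 182 to 226 in control libraries. Pecam1 was called lower, with a mean of 43.5 ± 7.48 in cKOHet cells and 196 ± 23.9 in control cells, and Stab1 was called higher, with a mean of 30.8 ± 14.8 in cKOHet cells and 5.51 ± 3.63 in control cells, and reached the filter through cKOHet libraries alone. Of the erythroid markers 1 of 5 was listed, Hba-a1, which was too low to be tested. Its values were 33.2, 7.40 and 8.33 in cKOHet libraries, against 0, 0.05 and 0.06 in control libraries. The part of these cells in the values of the antiviral genes was not tested. None of the neutrophil or stellate cell markers was listed, nor were Siglech and Klk1 of plasmacytoid dendritic cells or Cd79a and Ms4a1 of B cells. Hepatocyte markers summed to 255 to 624 in cKOHet libraries and 214 to 406 in control libraries, and none of the 2 tested was called.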

How the data were processed

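Per the labels' protocols, RNeasy mini kits gave the RNA of the sorted liver iNKT1 cells and an Ovation Ultralow system the libraries. What the authors deposited is 1 table of a signal for every Ensembl gene in every library, which its name describes as HTSeq counts after normalisation. Trimmomatic 0.33, STAR, HTSeq 0.6.1, DESeq2 and the build mm10 are named in the submitters' processing notes. How each was set, which annotation and strand option were used and how values were normalised is not given in the sources used here. Values are not whole numbers and whole reads could not be recovered, so depth is unknown and no count test was run. No listed gene stays below 5.22 in all libraries, which means that low genes had been taken out. Where a library had no read of a gene, the value can be 0 or slightly above it.

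Symbols and positions came from GENCODE M21 (GRCm38), which named 12870 of the 12942 identifiers. The comparison used log2(value + 1) and limma 3.58.1 under R 4.3.3, two-sided with a mean-variance trend. It covered the 11226 genes that reached 10 in 3 or more of the 6 libraries, with Benjamini-Hochberg adjustment over all of them and calls at an adjusted p under 0.05. Fold changes on this scale understate the change of low genes. Standard errors and 95% intervals come from the same fit, and intervals are not adjusted. An exact permutation test of 3 against 3 libraries cannot give a p below 0.1 and was not used for calls. The script was tested on simulated data with known changes, in which genes varied independently of each other. That checks the script and not the calls given here. Each of the 43 genes is described, and some other genes of the lists are not reported here. The members and lists, the motifs and the markers were chosen with earlier results of these data known. Promoter windows are RefSeq's for GRCm38.p6. Alternatives were other pseudocounts, filters, scalings and variance models, library weights, the replicate block, a term for low Xist, each library left out, and a stricter threshold.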

Additional observations from a re-analysis of the deposited data

How the results depend on the processing

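With 3 libraries a group and unknown depth, small changes and genes near 0 are the least certain. The antiviral genes called lower numbered 16 with no variance trend, 16 at an adjusted p under 0.01 and 16 to 29 with 1 library left out, the fewest without control replicate 2. With no variance trend 13 of the antiviral genes lost their call: Ifit1, Herc6, Oasl1, Mx1, Ddx58, Dhx58, Adar, Rsad2, Parp14, Dtx3l, Helz2, Ifi27 and Ifi27l2a. Those called higher numbered 1 with no variance trend and 2 to 3 with 1 library left out. Over all genes the main fit called 2407, and calls fell there as well. They numbered 1670 with no variance trend, 1476 at an adjusted p under 0.01 and 1883 to 2216 with 1 library left out. The cause of these shifts was not tested. A term for low Xist gave 2483 calls over all genes, 29 antiviral genes lower and 3 higher. With the libraries that have Xist alone, chosen after seeing the data, 1674 genes were called.

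With the replicate block, 2412 genes were called over all genes, and 27 antiviral genes lower and 3 higher. Oasl1 then lost its call and Zbp1 gained one. The numbers share no source in the labels, and libraries with the same number deviated together only weakly (r = 0.092, 0.088 and 0.055 across all genes), although each correlated best with its own number. Over the antiviral genes alone the same-number r was -0.045, 0.455 and 0.496, and cKOHet replicates 1 and 2 correlated best with control replicates 2 and 1.

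Of the 30 antiviral genes called, 16 were called under each alternative in which they could be fitted, 15 of them lower: Ifit2, Ifit3, Ifit3b, Ifit1bl1, Isg15, Usp18, Oas2, Oas3, Bst2, Rtp4, Sp100, Ifi44, Slfn1, Slfn2 and Slfn5. Among these, Ifi44 and Oas2 reached the filter through the control libraries alone. The strictest filter removed Oas2 and Mx2. The median log2 fold change of the antiviral genes ran from -0.78 to -0.46. Signs reversed, without any call, for Eif2ak2 at 0.016 without cKOHet replicate 2 and 0.16 without control replicate 2, for Ifi35 at 0.024 without cKOHet replicate 2, and for Stat2 at 0.012 without control replicate 1. Of the 30, 18 were called in each fit with 1 library left out.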

Other observations

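Relatives of the antiviral genes that were not on the list were looked up after the values of the listed genes had been seen. Ifi44l, the neighbour of Ifi44 on chromosome 3, was listed at 0.01, 0.00 and 0.04 in cKOHet libraries, against 15.9, 13.6 and 9.47 in control libraries. Ifit1bl2, of the Ifit locus, was at 2.02, 1.76 and 3.17 in cKOHet libraries, against 14.0, 20.9 and 6.37 in control libraries. Both were too low to be tested, and at both every cKOHet library lay below every control library, which held for 16.7% of all genes tested. Slfn9, between Slfn5 and Slfn8 on chromosome 11, was at 157, 187 and 174 in cKOHet libraries, against 157, 204 and 163 in control libraries, and was not called (log2 fold change -0.01, 95% interval -0.40 to 0.38, limma). Slfn3 (log2 fold change -0.98, adjusted p = 0.171, limma) and Oas1b (log2 fold change -0.63, adjusted p = 0.116, limma) were not called, although every cKOHet library of Oas1b lay below every control library. Oas1c (log2 fold change -0.42) and Slfn10-ps (log2 fold change 0.45, adjusted p = 0.212, limma) were not called either. Slfn10-ps, at 109, 121 and 112 in cKOHet libraries, against 108, 72.8 and 73.0 in control libraries, was the only one of these relatives at which every cKOHet library lay above every control. That held for 19.1% of all genes tested.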
